A study of Mus musculus with 8 samples.

Results

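Expression of 10 genes of dopaminergic neurons was examined in the hypothalamus of female POMC-C451Af/f mice and controls, out of 55890 genes in the deposited count table. All 10 were found by their Ensembl identifiers, and all 10 were among the 18637 genes that passed the filter on low counts. For 3 of them, *Th*, *Ddc* and *Slc18a2*, expression is shared by hypothalamic and midbrain dopamine neurons, and they make dopamine or load it into vesicles. The other 7, *Slc6a3*, *Drd2*, *Pitx3*, *En1*, *Foxa2*, *Aldh1a1* and *Chrna6*, are grouped here as genes of midbrain dopamine neurons. The 10 genes were chosen by what is known of dopamine neurons and by measured values of these same pools, namely their levels in each pool and their difference between genotypes. That difference is therefore given as a description, without a test.

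Dopamine is made from tyrosine by tyrosine hydroxylase and aromatic L-amino acid decarboxylase, is packed into vesicles by the vesicular monoamine transporter and is cleared after release by the dopamine transporter. In the hypothalamus, dopamine neurons of the arcuate nucleus release dopamine toward the pituitary and hold back prolactin secretion. The dopamine neurons of the substantia nigra and ventral tegmental area lie in the midbrain, just behind the hypothalamus, and depend on a set of transcription factors that includes Pitx3, En1 and Foxa2.

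The POMC-C451Af/f mice carry the POMC-Cre transgene and a floxed C451A allele of *Esr1*, whose recombined form lacks the palmitoylation site that estrogen receptor-α needs for signaling from the membrane. Cre is driven by *Pomc* regulatory sequence, so the mutation is made in cells in which that promoter is or has been active. The controls carry no Cre; the paper names them homozygous C451Af/f littermates and the sample labels name them wildtype. All animals were 16-week-old females, and each genotype was measured as 4 libraries, each from the RNA of 2 animals, 8 animals per genotype in all.

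The total estimated count per pool was between 36095253 and 40498166 in POMC-C451Af/f pools and between 37841365 and 48942116 in control pools. Levels are given as CPM, counts scaled to the normalized library size. *Esr1* was at 11.6, 12.2, 9.997 and 10.8 CPM in POMC-C451Af/f replicates 1 to 4 and at 12.3, 12.8, 11.6 and 16.0 CPM in control replicates 1 to 4. The groups overlapped, and gene counts do not separate the mutated transcript from the intact one, so *Esr1* carries no check of the genotype.

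The tissue label was checked against 19 markers of hypothalamic neurons, of which 18 passed the filter. *Pmch*, the precursor of melanin-concentrating hormone and the most abundant of them, was at 458, 521, 312 and 403 CPM in POMC-C451Af/f replicates 1 to 4 and at 631, 427, 513 and 445 CPM in control replicates 1 to 4. *Hcrt*, the orexin precursor, ranged from 101 to 183 CPM, and *Nkx2-1*, a transcription factor of the developing hypothalamus, from 26.6 to 37.9 CPM. Markers of the hypothalamus were thus measured in every pool. The exception was *Kiss1*, which had a count of 0 in 6 of the 8 pools and at most 0.349 CPM.

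*Th* (ENSMUSG00000000214.12, chr7:142892752-142931128, minus strand of GRCm38) encodes tyrosine hydroxylase, the rate-limiting enzyme of dopamine synthesis. *Ddc* (ENSMUSG00000020182.17, chr11:11814101-11898144, minus strand) encodes the decarboxylase that turns L-DOPA into dopamine. *Slc18a2* (ENSMUSG00000025094.9, chr19:59260896-59296012, plus strand) encodes the vesicular monoamine transporter VMAT2, which serotonin, noradrenaline and histamine neurons use as well. The promoters of these 3 genes and of *Slc6a3*, the dopamine transporter gene, are shown because together they cover the synthesis, vesicle loading and reuptake of dopamine. RefSeq promoter windows of 300 bases on GRCm38.p6, 250 before and 50 from the start of transcription on, were found for 9 of the 10 genes; no entry was found for *Chrna6*. The window of *Th* lies inside the span given above for the gene and not at its 5′ end, chr7:142931128. In the sequences, 5′ to 3′ on the gene's strand, capitals mark the motif named after them.

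Th promoter, chr7:142899946-142900245, minus strand: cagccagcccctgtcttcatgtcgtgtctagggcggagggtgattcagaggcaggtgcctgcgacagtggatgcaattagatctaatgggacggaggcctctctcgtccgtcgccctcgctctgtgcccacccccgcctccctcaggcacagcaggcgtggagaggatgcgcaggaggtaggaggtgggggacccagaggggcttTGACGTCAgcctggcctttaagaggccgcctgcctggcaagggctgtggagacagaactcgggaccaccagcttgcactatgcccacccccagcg
Slc18a2 promoter, chr19:59260628-59260927, plus strand: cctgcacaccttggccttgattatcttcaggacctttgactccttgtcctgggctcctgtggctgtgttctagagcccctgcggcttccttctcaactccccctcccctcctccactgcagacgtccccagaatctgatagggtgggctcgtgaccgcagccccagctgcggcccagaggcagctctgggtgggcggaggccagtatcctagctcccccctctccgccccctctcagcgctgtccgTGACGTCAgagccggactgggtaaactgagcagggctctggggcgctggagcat
Ddc promoter, chr11:11898095-11898394, minus strand: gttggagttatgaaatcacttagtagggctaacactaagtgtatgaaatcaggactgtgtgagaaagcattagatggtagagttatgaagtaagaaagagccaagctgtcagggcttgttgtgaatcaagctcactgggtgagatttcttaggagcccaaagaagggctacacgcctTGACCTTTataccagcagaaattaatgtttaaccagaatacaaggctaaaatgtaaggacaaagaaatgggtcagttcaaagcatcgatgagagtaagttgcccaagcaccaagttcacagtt
Slc6a3 promoter, chr13:73536497-73536796, plus strand: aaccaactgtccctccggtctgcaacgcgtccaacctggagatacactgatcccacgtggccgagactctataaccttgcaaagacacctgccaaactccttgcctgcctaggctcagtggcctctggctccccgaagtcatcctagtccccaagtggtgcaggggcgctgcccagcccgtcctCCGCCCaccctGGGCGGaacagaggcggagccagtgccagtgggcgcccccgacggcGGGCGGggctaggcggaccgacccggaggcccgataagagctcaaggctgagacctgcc

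In the promoters of *Th* and *Slc18a2* the capitals mark the cyclic AMP response element TGACGTCA, which reads the same on both strands. It begins 45 bases before the start in *Th* and 4 bases before it in *Slc18a2*, and 1.79% of the 32851 promoters in the table hold it. In *Ddc* the capitals mark TGACCTTT, the opposite strand of AAAGGTCA, the element that Nr4a2 can bind as a monomer. *Ddc* has 2 entries in the table, and the window shown was picked because it holds this element, which the other entry lacks. Which entry is used in this tissue was not tested. In the window shown the element begins 73 bases before the start and overlaps a TATA box match (TATAAA) on the same opposite strand, and 1.51% of promoters hold it. In *Slc6a3* the capitals mark 3 GC boxes, GGGCGG or CCGCCC on the other strand, a motif in 35.7% of promoters and in those of 6 of the 10 genes. The forkhead element TGTTTAC and the homeodomain elements TAATTA and TAATCC were in 0 of the 13 promoter entries of these genes on either strand; 3.65%, 5.29% and 7.06% of all promoters hold them. TATAAA was in 1 of the 2 entries of *Ddc*, in 1 of the 3 entries of *Foxa2* and in 13.6% of promoters. These matches describe the letters in the windows and no binding was measured.

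In POMC-C451Af/f replicates 1 to 4, *Th* was at 60.3, 55.4, 90.8 and 73.1 CPM, and in control replicates 1 to 4 at 47.0, 42.0, 50.9 and 51.1 CPM. Replicate 3 was the highest of the POMC-C451Af/f pools and replicate 2 the lowest, and every POMC-C451Af/f pool was above every control pool. Of the 10 genes *Th* was the only 1 whose groups did not overlap in this direction, as in 1.34% of the 18637 tested genes; none of the 10 lay wholly below the controls, as 1.45% of tested genes did. Since the difference between genotypes took part in choosing the genes, nothing is read from these counts. The means were 69.9 ± 15.8 and 47.8 ± 4.28 CPM (SD, n = 4 pools each), and the log2 fold change was 0.55 (standard error 0.135). In bulk RNA, a difference in the number of cells of a type and one in the RNA per cell cannot be told apart.

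*Ddc* was at 55.8, 47.0, 72.8 and 55.7 CPM in the POMC-C451Af/f pools and at 47.5, 41.8, 49.8 and 52.5 CPM in the control pools, in the order of their replicate numbers, which is kept from here on. The highest was again POMC-C451Af/f replicate 3, and replicate 2 lay among the controls. *Slc18a2* was at 55.3, 48.5, 67.4 and 57.9 CPM in the POMC-C451Af/f pools and at 46.8, 36.1, 47.0 and 54.2 CPM in the controls. Here too the groups overlapped, with POMC-C451Af/f replicate 2 below control replicate 4. The log2 fold changes were 0.27 (standard error 0.116) for *Ddc* and 0.32 (standard error 0.12) for *Slc18a2*. Without POMC-C451Af/f replicate 3 that of *Ddc* was 0.14. An annotated antisense gene, *Gm29261*, shares 111 exon bases with *Slc18a2*.

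*Slc6a3* (ENSMUSG00000021609.7, chr13:73536747-73578672, plus strand) encodes the dopamine transporter, which takes released dopamine back into the neuron and is far more abundant in midbrain than in hypothalamic dopamine neurons. It was at 36.4, 12.3, 90.0 and 53.8 CPM in the POMC-C451Af/f pools and at 6.90, 4.24, 15.8 and 26.4 CPM in the controls. The pools of each genotype were spread widely: POMC-C451Af/f replicate 2 lay below control replicates 3 and 4, and the highest pool held 21.2 times the level of the lowest. The means were 48.1 ± 32.7 and 13.3 ± 9.997 CPM (SD, n = 4 pools each), and the log2 fold change was 1.86 (standard error 0.601).

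*Drd2* (ENSMUSG00000032259.9, chr9:49340627-49408177, plus strand) encodes the D2 receptor, an autoreceptor on dopamine neurons that is also found on their target cells. Its levels of 22.3, 19.0, 25.5 and 23.4 CPM in the POMC-C451Af/f pools and 19.2, 16.8, 20.9 and 21.1 CPM in the controls overlapped. The highest pool held 1.52 times the level of the lowest, and the log2 fold change was 0.21 (standard error 0.0944). *Chrna6* (ENSMUSG00000031491.11, chr8:27403212-27413944, minus strand), the α6 subunit of nicotinic acetylcholine receptors on midbrain dopamine neurons, was at 8.10, 4.24, 17.3 and 11.1 CPM against 4.59, 2.89, 5.36 and 6.78 CPM. POMC-C451Af/f replicate 2 was below every control pool but replicate 2. The log2 fold change was 1.05 (standard error 0.372), and 0.67 without POMC-C451Af/f replicate 3.

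The transcription factors were near the lower limit of what these libraries measure. *En1* (ENSMUSG00000058665.9, chr1:120602418-120607992, plus strand), a homeobox factor needed to form and keep midbrain dopamine neurons, was at 2.42, 0.94, 6.91 and 3.25 CPM in the POMC-C451Af/f pools and at 0.323, 0.367, 0.736 and 2.01 CPM in the controls. Control replicate 4 was above POMC-C451Af/f replicate 2, so the groups overlapped, and the counts behind these levels ran from 13 to 246. The log2 fold change was 1.99 (standard error 0.639).

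*Foxa2* (ENSMUSG00000037025.12, chr2:148042877-148046969, minus strand), a forkhead factor of the floor plate and of dopamine neurons, was at 1.43, 0.537, 3.17 and 1.70 CPM in the POMC-C451Af/f pools. In the controls it was at 0.695, 0.413, 0.879 and 0.848 CPM, so POMC-C451Af/f replicate 2 lay within their range. Its log2 fold change of 1.26 (standard error 0.445) was 0.78 without POMC-C451Af/f replicate 3. *Pitx3* (ENSMUSG00000025229.16, chr19:46135685-46148326, minus strand), a homeobox factor on which nigral dopamine neurons depend, was at 0.642, 0.242, 1.24 and 0.834 CPM against 0.248, 0.138, 0.389 and 0.477 CPM in the controls. These values rest on 6 to 44 counts per pool, POMC-C451Af/f replicate 2 again lay within the controls' range, and the log2 fold change was 1.23 (standard error 0.475). The exons of *Pitx3* share 10 bases with those of *Elovl3*.

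*Aldh1a1* (ENSMUSG00000053279.9, chr19:20492715-20643465, plus strand) encodes a retinaldehyde dehydrogenase of a subset of nigral dopamine neurons that other cells of the brain also express. It was at 96.9, 82.2, 148 and 104 CPM in the POMC-C451Af/f pools and at 66.8, 79.5, 83.4 and 78.5 CPM in the controls. The groups overlapped only where POMC-C451Af/f replicate 2 fell below control replicate 3. The log2 fold change was 0.48 (standard error 0.151), and 0.29 without POMC-C451Af/f replicate 3.

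**Figure D1:**
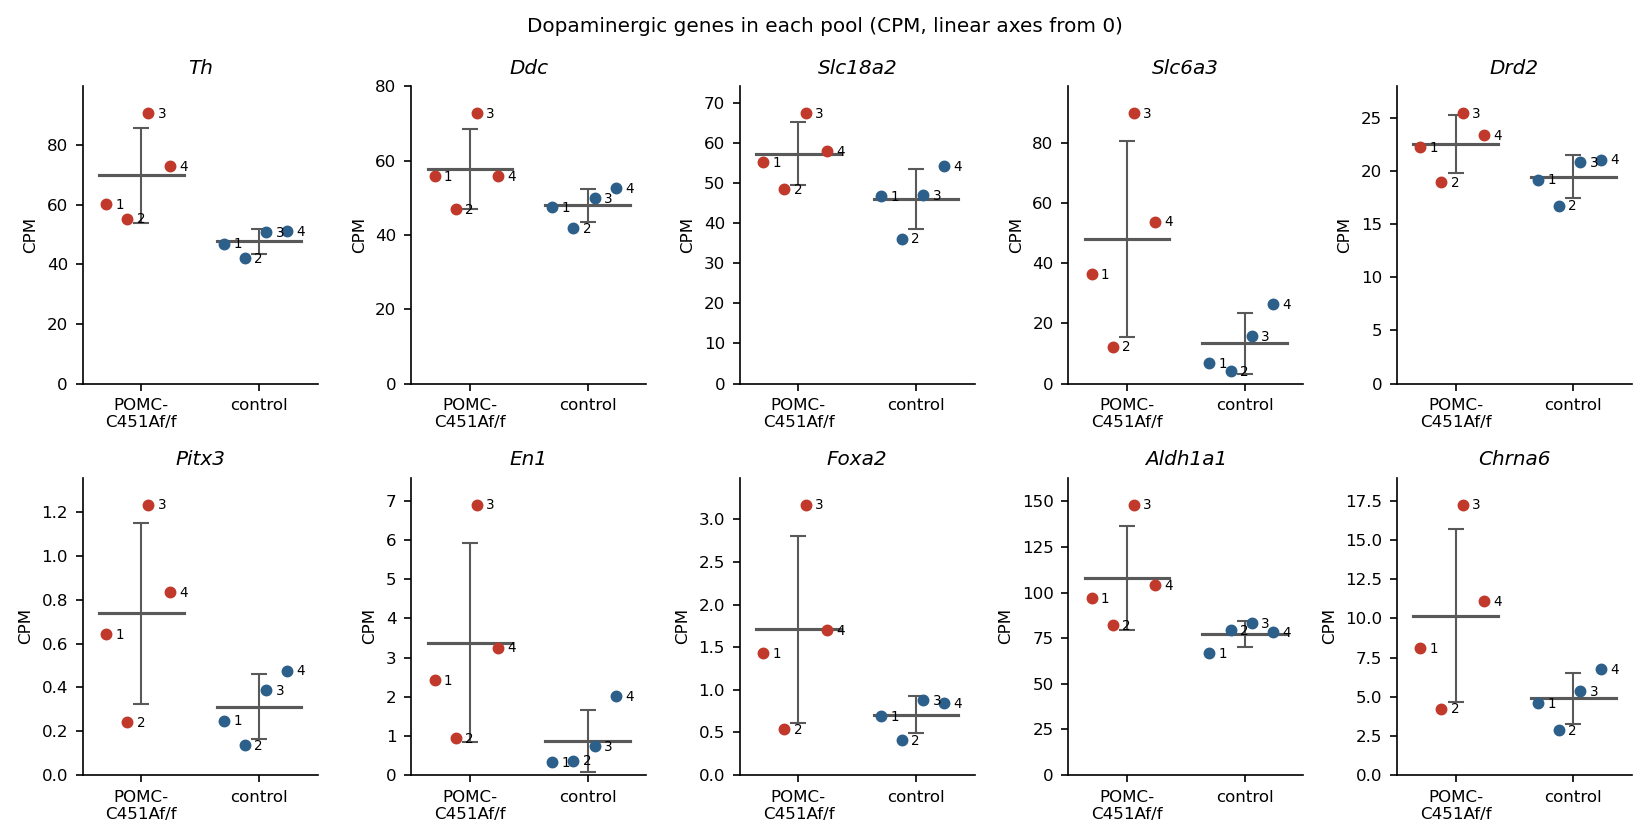
Level in CPM of each of the 10 genes in the 4 POMC-C451Af/f pools (red) and the 4 control pools (blue), numbered by replicate, with the mean and SD of each group in grey. POMC-C451Af/f replicate 3 is the highest pool in all 10 panels and replicate 2 the lowest of its group.

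The order of the pools was much alike from gene to gene. POMC-C451Af/f replicate 3 was the highest pool for 10 of the 10 genes. The next highest was POMC-C451Af/f replicate 4 for 9 genes and replicate 1 for *Ddc*. Among POMC-C451Af/f pools, replicate 2 was lowest for all 10. Within the controls, replicate 4 was highest for 8 genes and replicate 3 for the other 2, *Foxa2* and *Aldh1a1*, and replicate 2 was lowest for 8 genes and replicate 1 for *En1* and *Aldh1a1*. Levels in each pool took part in choosing the genes, so this order is a description and nothing is read from it.

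Pearson's r of log2(CPM + 0.5) over the 8 pools describes the same likeness; the 10 genes share the same 8 libraries, and no p is given. Among the 3 synthesis and vesicle genes the 3 pairs had a median r of 0.93 (0.902 to 0.938) and a median Spearman's rho of 0.905. For the 21 pairs of the 7 midbrain genes the median r was 0.954 (0.805 to 0.995) and the median rho 0.952. Pairs that joined a gene of each group, 21 in number, had a median r of 0.934 (0.747 to 0.974). After the genotype means were removed the medians were 0.906 (0.837 to 0.936), 0.93 (0.685 to 0.992) and 0.905 (0.546 to 0.96). The lowest of these were pairs with *Aldh1a1*, at 0.546 with *Slc18a2* and 0.685 with *Drd2*. With the genotype means kept, the median r was 0.799, 0.908 and 0.906 without control replicate 2 and POMC-C451Af/f replicate 3. These 2 pools, the farthest from the median in *Slc6a3*, were left out for every pair.

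The gene groups differed in the width of their spread, which is described here without a test. The SD of log2(CPM + 0.5) between pools of the same genotype was 0.24 for *Th*, 0.21 for *Ddc* and 0.22 for *Slc18a2*, with a median of 0.22. Over all tested genes the median was 0.10, and the 3 genes lay above 90.0, 83.9 and 86.3% of them. Among the midbrain genes it was 1.16 for *Slc6a3*, 0.87 for *En1*, 0.65 for *Chrna6*, 0.56 for *Foxa2* and 0.41 for *Pitx3*, each above at least 98.1% of the tested genes. *Aldh1a1*, at 0.27, and *Drd2*, at 0.16, were the exceptions: the first was close to *Th*, and the other was below all 3 synthesis and vesicle genes. The median of the 7 midbrain genes was 0.56, and it was 0.38 without POMC-C451Af/f replicate 2.

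Within each genotype the spread was widest for *Slc6a3* and *En1*. *Slc6a3* had an SD of 1.199 in POMC-C451Af/f pools and of 1.123 in controls, and *En1* of 0.98 and 0.74. For *Th* the corresponding values were 0.32 and 0.13, and for *Slc18a2* 0.19 and 0.24. In the controls *Pitx3* and *Foxa2*, at 0.27 each, lay close to *Slc18a2*, and *Aldh1a1* and *Drd2*, at 0.14 and 0.15, lay close to *Th* and to *Ddc* (0.14). The median over the 7 midbrain genes was 0.75 in POMC-C451Af/f pools and 0.27 in controls, beside 0.26 and 0.14 over the 3 synthesis and vesicle genes.

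Low counts alone give a wide spread, so each gene was also set beside genes of its own abundance. edgeR estimates a biological coefficient of variation, the spread between pools beyond counting error, for each gene and as a trend over abundance. *Slc6a3* had a coefficient of variation of 74.4% where the trend was 6.47%, a ratio of 11.5. For *En1* and *Chrna6* the ratios were 4.26 and 3.57, and for *Aldh1a1*, *Foxa2* and *Pitx3* 2.69, 2.55 and 2.32. *Th*, *Ddc* and *Slc18a2* had ratios of 2.38, 2.07 and 2.16, and *Drd2* of 1.48. Relative to abundance, therefore, *Pitx3* and *Foxa2* stood close to the synthesis and vesicle genes, and the median tested gene had a ratio of 0.569.

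**Figure D2:**
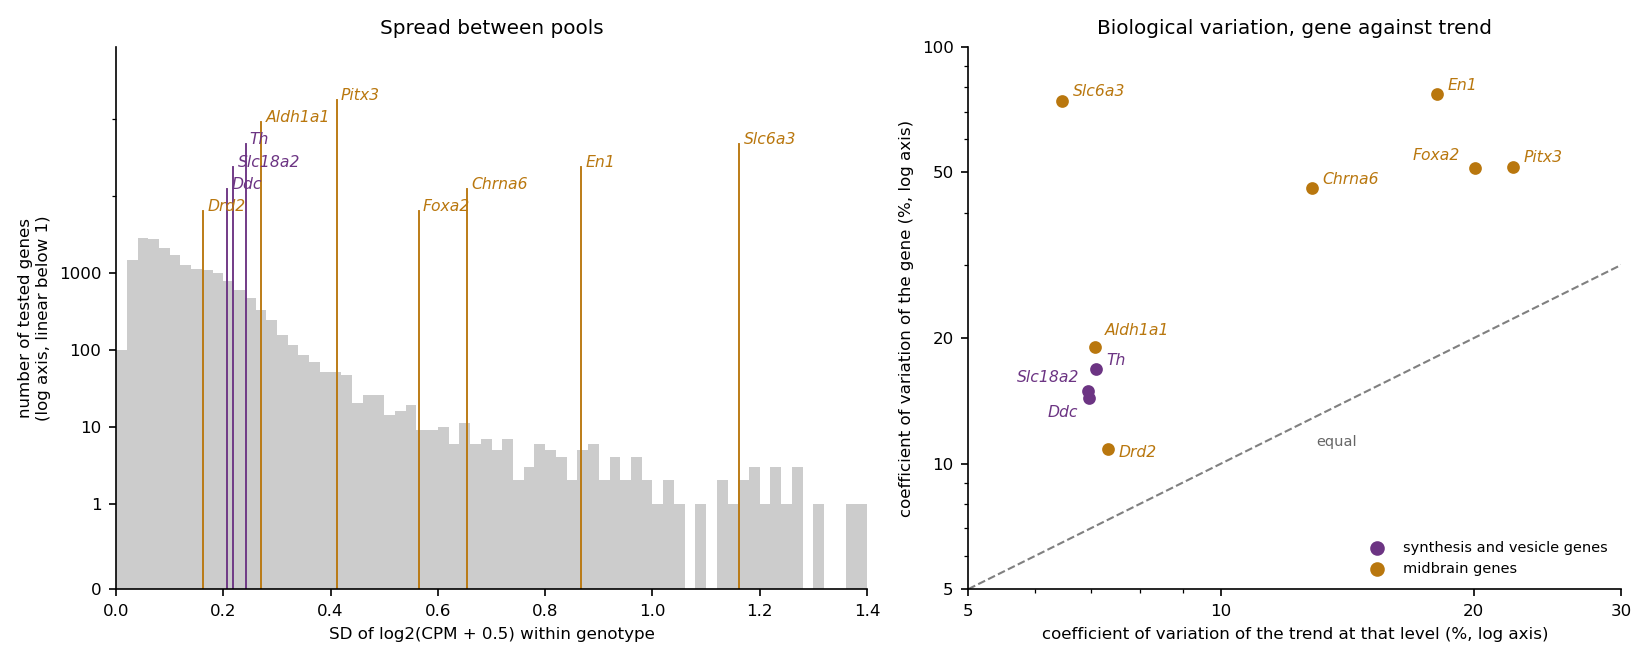
Left, histogram of the SD of log2(CPM + 0.5) within genotype over tested genes (count on a log axis), with the 3 synthesis and vesicle genes (purple) and the 7 midbrain genes (orange) as lines whose height carries no value; genes beyond the axis are not drawn. Right, the biological coefficient of variation of each gene in percent against that of the trend at its abundance, on log axes, with the dashed line where they are equal; *Slc6a3* lies farthest above it, at 74.4% against 6.47%.

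Levels were compared between genes as CPM per kb of exon, over the basic transcripts of the annotation. In the controls *Aldh1a1* was highest, at 32.2 ± 2.98 CPM per kb (SD, n = 4), and *Ddc* (22.9 ± 2.17) and *Th* (20.2 ± 1.81) followed with pools that overlapped each other. *Slc18a2*, at 12.2 ± 1.96, lay below them, and *Drd2*, at 7.66 ± 0.786, below it. The pools of *Slc6a3*, at 3.86 ± 2.89, overlapped both *Drd2* and *Chrna6* (1.69 ± 0.558), and *En1*, *Foxa2* and *Pitx3* were together at 0.328, 0.325 and 0.227. In POMC-C451Af/f pools *Slc6a3*, at 13.9 ± 9.47 CPM per kb, ranged from below *Drd2* to above *Slc18a2*, and only *Ddc* and *Slc18a2*, and *Drd2* and *Chrna6*, were neighbours in the order whose pools did not overlap. Exon lengths over all annotated transcripts were larger for *Ddc* (2.13 times), *Aldh1a1* (2.06 times) and *Slc18a2* (1.38 times) and at most 1.11 times as long for the rest. The order of the levels depended on that choice. With them *Th*, at 20.2 CPM per kb, was highest in the controls, above *Aldh1a1* (15.6) and *Ddc* (10.7), and the pools of *Slc18a2*, at 8.81 ± 1.42 CPM per kb (SD, n = 4), overlapped those of *Ddc* and *Drd2*.

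Within a pool, *Slc6a3* per kb was 41.3, 15.1, 67.8 and 50.4% of *Th* per kb in the POMC-C451Af/f pools and 10.03, 6.90, 21.3 and 35.3% in the controls. *Ddc* per kb was between 86.2 and 104.6% of *Th* in POMC-C451Af/f pools and between 110.5 and 116% in controls, so the groups did not overlap. The genotype contrast took part in choosing both genes, and nothing is read from this. *Slc18a2* per kb stayed between 46.4 and 66.2% of *Th* over the 8 pools. With the longer exon lengths *Slc18a2* was at 33.6 to 47.9% and *Ddc* at 40.4 to 54.5% over the 8 pools. The balance of transporter to hydroxylase thus differed between pools of the same genotype, while that among the 3 synthesis and vesicle genes differed less. As a difference in level rather than a ratio, the highest and lowest pools were 20.7 CPM per kb apart for *Th*, 14.8 for *Ddc* and 8.27 for *Slc18a2*. This difference was larger for *Aldh1a1* (34.0) and *Slc6a3* (24.8), and for the other 5 midbrain genes, from 4.95 for *Chrna6* to 0.796 for *Pitx3*, it was smaller than for *Th*, *Ddc* or *Slc18a2*. Over all annotated transcripts it was 16.5 for *Aldh1a1*, below *Th*.

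Across all genes, the quasi-likelihood test of edgeR, adjusted by the Benjamini-Hochberg method, called 4 genes between genotypes (FDR at most 0.05, absolute log2 fold change over 0.5), 0.0215% of those tested. These were *Efr3b*, *Myo7a*, *Mrpl48-ps* and *Gm44675*, named because they are few. Of the 10 dopaminergic genes 0 were called, each with an adjusted p of 0.878 in edgeR. A DESeq2 fit to the deposited counts, also with genotype alone, called 12 genes in all and 0 of the 10. With the replicate number as a block, edgeR called 2 genes in all and 0 of the 10. DESeq2 with this block called 10 genes in all, 4 of them dopaminergic: *Th*, *Slc6a3*, *En1* and *Chrna6*. At an unadjusted p under 0.05, 9 of the 10 were higher in POMC-C451Af/f pools, where 2.7% of tested genes were, and 0 were lower, where 2.39% were; *Drd2* was the other. The choice of the genes used this contrast, and nothing is read from these counts. The median log2 fold change was 0.32 over the 3 synthesis and vesicle genes and 1.23 over the 7 midbrain genes, beside 0.000854 over all tested genes. Without POMC-C451Af/f replicate 3 the median of the midbrain genes was 0.78.

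**Figure D3:**
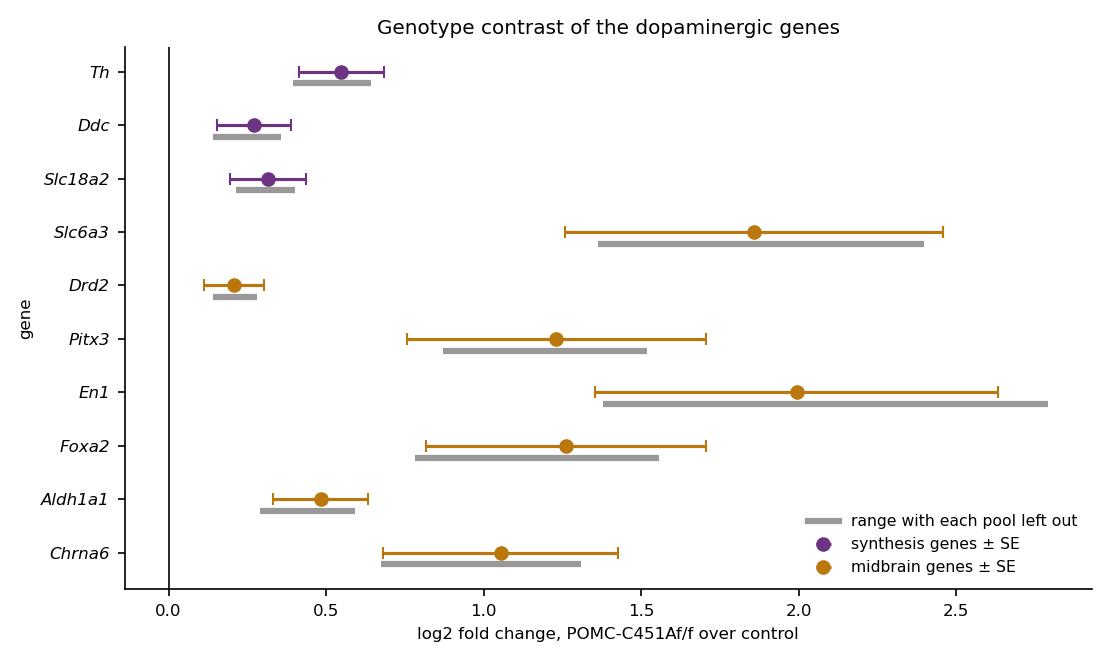
Log2 fold change of POMC-C451Af/f over control with its standard error for the 3 synthesis and vesicle genes (purple) and the 7 midbrain genes (orange); grey bars give the range when each pool in turn was left out. *En1* has the largest value, 1.99, and *Drd2* the smallest, 0.21.

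Of 5 genes that make or recycle tetrahydrobiopterin, the cofactor of tyrosine hydroxylase, 5 were tested, 3 had a positive and 2 a negative log2 fold change, and the median was 0.05 (0.03 to 0.07 with each pool left out). The highest pool for 3 of the 5 was POMC-C451Af/f replicate 3. Among these was *Gch1*, GTP cyclohydrolase, which starts the synthesis of the cofactor, at 7.75 CPM in that pool and 4.93 to 6.24 CPM in the others (log2 fold change 0.21, and 0.10 without that pool). *Qdpr*, the dihydropteridine reductase and the most abundant, ranged from 165 to 206 CPM over the 8 pools. *Pcbd1*, which recycles the cofactor, lay between 25.6 and 28.9 CPM in POMC-C451Af/f pools and between 28.3 and 31.6 CPM in controls (log2 fold change -0.13; adjusted p = 0.878 in edgeR). The 4 genes of dopamine breakdown had a median of 0.0071 (-0.0013 to 0.02 with each pool left out), and 2 of the 4 were highest in POMC-C451Af/f replicate 3. *Aldh2*, the most abundant, lay between 105 and 119 CPM. Of the other 4 dopamine receptors 3 were tested, with a median of 0.07 (-0.02 to 0.12 with each pool left out); *Drd1*, the most abundant, lay between 4.52 and 6.77 CPM, and *Drd4* did not pass the filter, at 0.112 CPM or less.

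On a list of 15 further genes of midbrain dopamine neurons, all 15 were tested, 13 had a positive and 2 a negative log2 fold change, and the median was 0.28. Without POMC-C451Af/f replicate 3 the median was 0.18 and all 15 were positive. For 11 of the 15 that pool was the highest, compared with 15.9% of all tested genes. Their summed level was 422, 362, 456 and 413 CPM in the POMC-C451Af/f pools and 347, 352, 370 and 377 CPM in the controls, of which *Calb1*, a calcium-binding protein of many neurons and the most abundant, made up 189 to 220 CPM. *Calb1* was lowest in POMC-C451Af/f replicate 3, and *Lmx1a*, a LIM homeobox factor of midbrain dopamine neurons, was at 3.90 CPM there and at 4.11 to 5.31 CPM in the other POMC-C451Af/f pools. For 6 genes the unadjusted p was under 0.05, all higher in POMC-C451Af/f pools, where 2.7% of tested genes were, and 0 were called. The list was chosen with earlier results known, and nothing is read from this count. Their adjusted p in edgeR was 0.878 each.

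*Nr4a2*, an orphan nuclear receptor that activates *Th* and *Slc6a3* in midbrain neurons, was at 21.4, 15.6, 29.1 and 20.9 CPM in the POMC-C451Af/f pools and at 14.3, 13.5, 15.5 and 17.4 CPM in the controls (log2 fold change 0.52). *Ret*, the receptor of the glial cell line-derived neurotrophic factor family, was at 85.7, 60.7, 116 and 98.7 CPM against 52.0, 58.3, 65.4 and 68.5 CPM (0.56). *Chrnb3*, a nicotinic receptor subunit that assembles with α6, was at 4.05, 1.85, 12.52 and 5.81 CPM against 2.43, 1.284, 2.13 and 3.15 CPM (1.43, and 0.80 without POMC-C451Af/f replicate 3). In each of these, POMC-C451Af/f replicate 3 was highest and replicate 2 lay among the controls. The other 3 were *Slc10a4*, a vesicle protein of monoamine neurons (0.86), *Gucy2c*, a guanylyl cyclase receptor of midbrain dopamine neurons (0.97, and 0.58 without POMC-C451Af/f replicate 3), and *Ntsr1*, a neurotensin receptor (0.15, and 0.09 without control replicate 2), and their groups overlapped too.

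**Figure D4:**
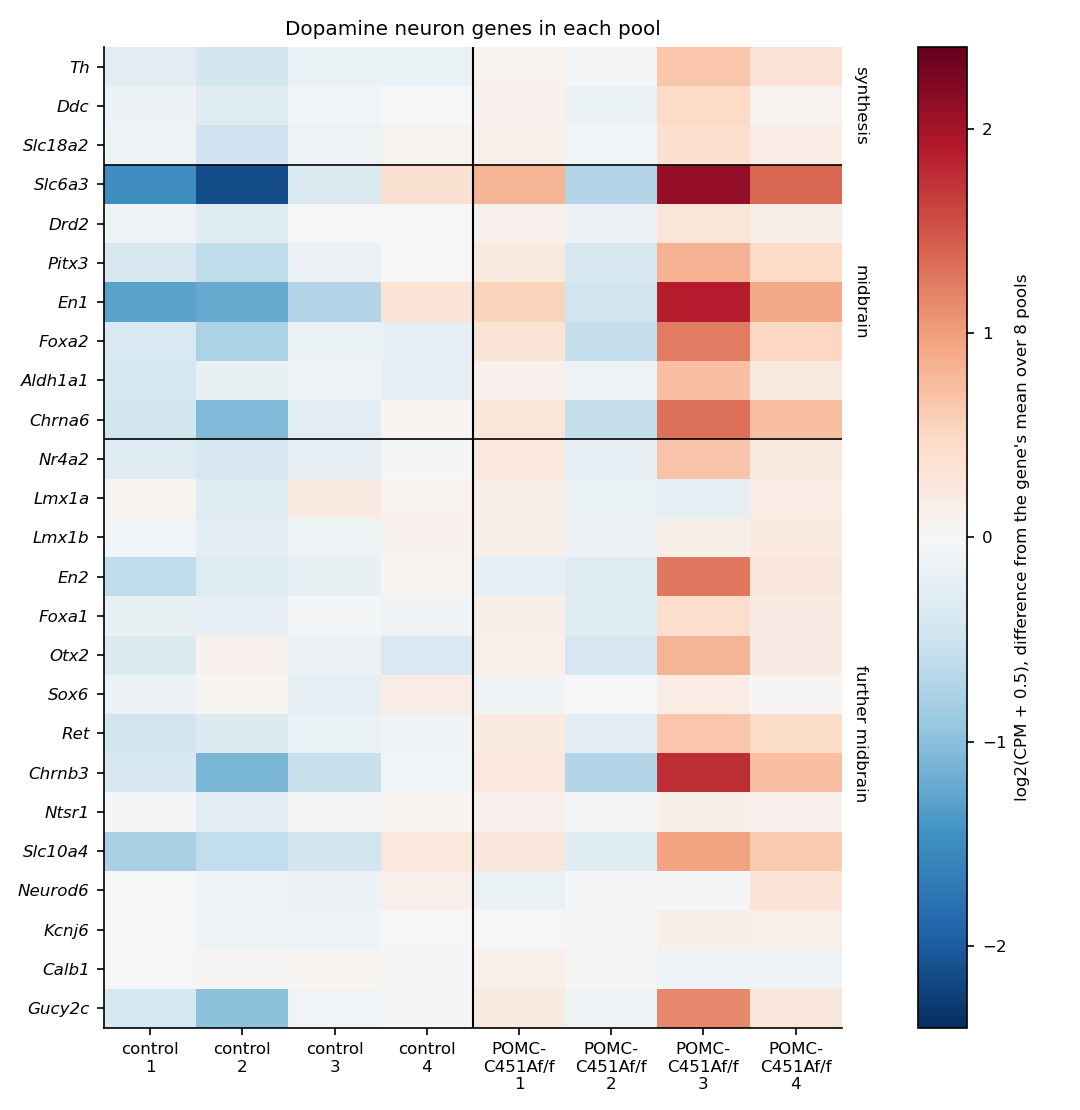
Difference of log2(CPM + 0.5) from each gene's mean over the 8 pools for the 3 synthesis and vesicle genes, the 7 midbrain genes and the 15 further midbrain genes (rows) in the control and POMC-C451Af/f pools (columns, numbered by replicate). POMC-C451Af/f replicate 3 is the reddest column, and *Slc6a3* and *En1* are the rows with the strongest colors.

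Genes that mark ventral midbrain neurons without dopamine were also highest in POMC-C451Af/f replicate 3, for 5 of the 6 on the list. All 6 were tested and had a positive log2 fold change, with a median of 0.71, and 0 were called. Without POMC-C451Af/f replicate 3 the median was 0.04, with 3 positive and 3 negative. Their summed level was 13.3, 12.1, 28.3 and 14.1 CPM in the POMC-C451Af/f pools and 12.3, 11.5, 13.4 and 12.1 CPM in the controls. *Gata2*, a factor of GABA neurons and the most abundant, lay between 6.56 and 8.54 CPM. *Pou4f1*, a POU factor of the red nucleus and the habenula, was named after its values were seen: POMC-C451Af/f replicate 3 held 6.37 CPM, and the remaining 7 pools 0.0988 to 0.511 CPM. *Tal1*, a factor of midbrain GABA neurons, was at 2.64, 1.85, 3.82 and 3.62 CPM against 1.44, 1.72, 1.76 and 1.80 CPM, with groups that did not overlap (log2 fold change 0.82; adjusted p = 0.878 in edgeR).

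Hypothalamic markers lay on the other side. Of the 18 hypothalamic neuron markers tested, 1 had a positive and 17 a negative log2 fold change, with a median of -0.20, and POMC-C451Af/f replicate 3 was the lowest pool for 12 of the 18, compared with 16.3% of all tested genes. The median was -0.12 without that pool, -0.13 without control replicate 1 and -0.31 without POMC-C451Af/f replicate 2. Their summed level was 1264, 1464, 892 and 1111 CPM in the POMC-C451Af/f pools and 1746, 1245, 1475 and 1212 CPM in the controls. *Trh*, the thyrotropin-releasing hormone gene, was at 74.7, 82.7, 65.7 and 82.0 CPM against 94.1, 86.3, 89.8 and 88.6 CPM, with groups that did not overlap (log2 fold change -0.23; adjusted p = 0.878 in edgeR). *Pomc*, the gene whose promoter drives Cre, was at 49.5, 50.2, 35.8 and 30.6 CPM against 98.9, 49.7, 50.5 and 50.8 CPM (log2 fold change -0.59; adjusted p = 0.878 in edgeR), and the log2 fold change was -0.28 without control replicate 1. POMC-C451Af/f replicates 3 and 4, highest in *Slc6a3*, were lowest in *Pomc*.

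On a list of 10 further genes of hypothalamic dopamine neurons, 2 log2 fold changes were positive and 8 negative, the median was -0.095 (-0.03 without POMC-C451Af/f replicate 3), and the summed level was 157, 159, 129 and 154 CPM in the POMC-C451Af/f pools and 161, 159, 169 and 171 CPM in the controls. The lowest pool for 7 of the 10 was POMC-C451Af/f replicate 3. *Dlx1*, a homeobox factor of forebrain GABA neurons and the most abundant of the list, was at 44.3, 46.1, 38.1 and 43.3 CPM against 48.1, 48.7, 52.5 and 53.7 CPM, with groups that did not overlap (log2 fold change -0.24; adjusted p = 0.878 in edgeR). POMC-C451Af/f replicate 3 was thus low for most of these genes and high for *Th*, *Ddc* and *Slc18a2*. The part of the tissue makeup of each pool in the levels of the dopaminergic genes was not tested.

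**Figure D5:**
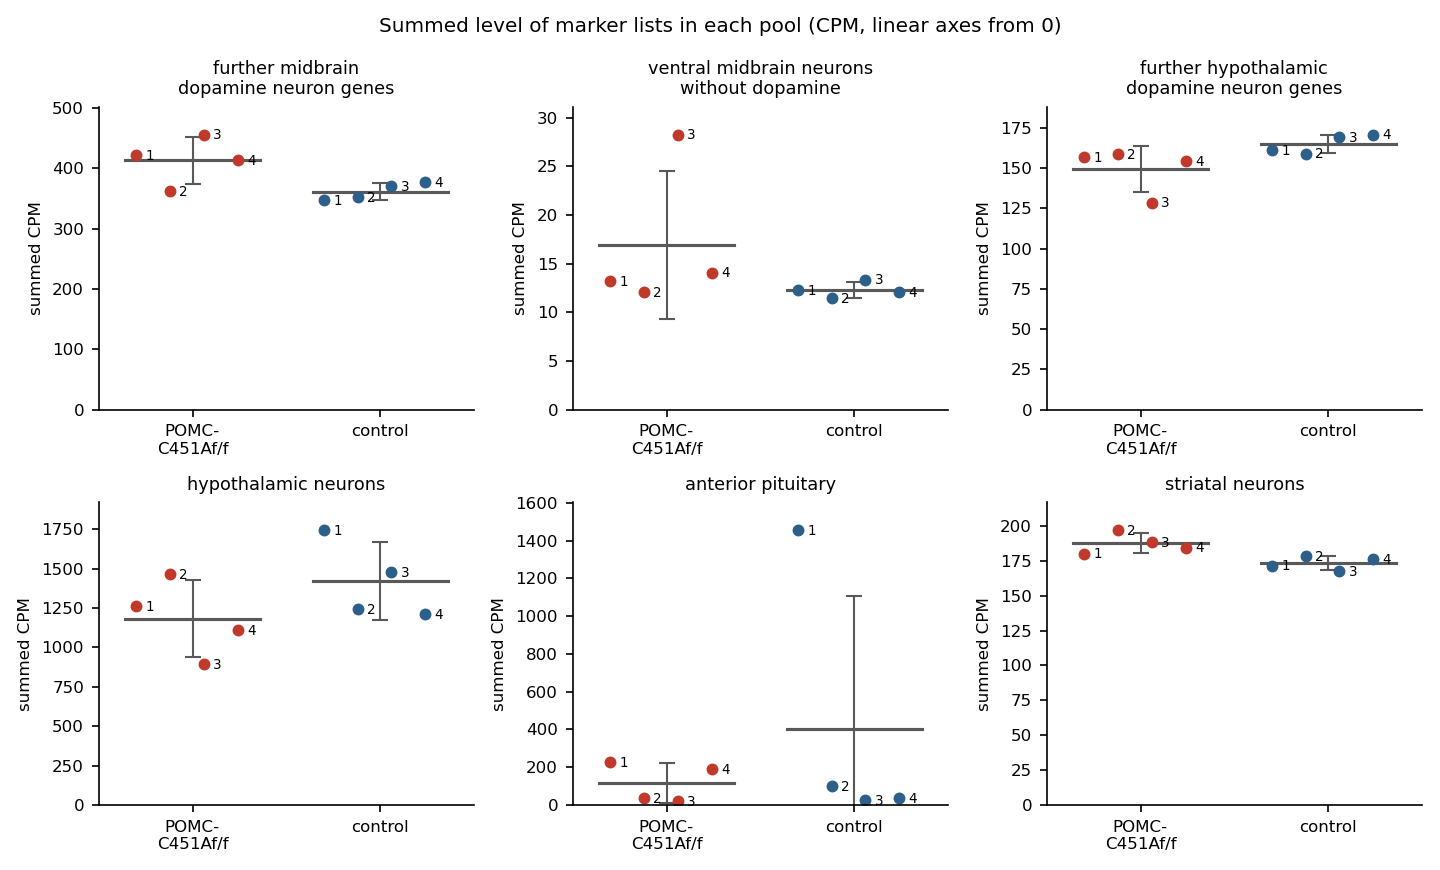
Summed CPM of 6 marker lists in each POMC-C451Af/f pool (red) and control pool (blue), numbered by replicate, with the mean and SD of each group in grey (the SD bar of the pituitary controls ends at the axis). POMC-C451Af/f replicate 3 is highest for both midbrain lists, at 456 and 28.3 CPM, and lowest for both hypothalamic lists, at 129 and 892 CPM.

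The other lists were smaller or lower. *Hdc*, histidine decarboxylase of histamine neurons, was at 44.0, 48.1, 29.8 and 31.0 CPM against 51.1, 37.2, 46.0 and 50.1 CPM. Serotonin neuron markers were low, with 2 of 4 tested; *Tph2*, which makes serotonin, was at 0.51 CPM or less, and *Gata3*, the most abundant, which midbrain GABA neurons also express, was at 0.617, 0.296, 2.92 and 1.279 CPM against 0.298, 0.573, 0.307 and 0.397 CPM (log2 fold change 1.68; adjusted p = 0.878 in edgeR). Without POMC-C451Af/f replicate 3 the log2 fold change of *Gata3* was 0.88. Of the 5 noradrenaline neuron markers 0 passed the filter, and *Dbh*, the most abundant, was at 0.111 CPM or less.

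The 7 striatal markers had a median of 0.02 (-0.13 to 0.13 with each pool left out), and their summed level was 180, 197, 188 and 184 CPM in the POMC-C451Af/f pools against 171, 179, 168 and 176 CPM. Of these, *Syndig1l* (19.7 to 24.6 CPM against 16.2 to 19.3 CPM; log2 fold change 0.26) did not overlap between groups, while *Pde10a*, a phosphodiesterase and the most abundant, did (0.24). The 6 tested of 9 anterior pituitary markers had a median of -0.60, with *Prl* at 163, 16.2, 7.83 and 135 CPM against 1013, 68.8, 10.7 and 14.96 CPM, an order of pools unlike that of *Th*. Without control replicate 1 all 6 were positive and the median was 0.35. The 4 reference genes had a median of -0.0074 (-0.03 to 0.0042 with each pool left out), and *Gapdh* lay between 1805 and 2004 CPM.

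By the rule for likeness, the 10 tested genes with the highest r to *Slc6a3* over the 8 pools were *Ankrd34b*, *Rpp14*, *Pitx3*, *Drd2*, *Scd2*, *En1*, *Chrna6*, *Lgi2*, *Gucy1a1* and *Idi1*. Their r was between 0.963 and 0.986 and their rho between 0.929 and 1, and r stayed between 0.932 and 0.987 within genotypes and between 0.941 and 0.994 without POMC-C451Af/f replicate 3 and control replicate 2, the pools farthest out. Of the 10, 4 were midbrain genes of the list examined here. The others varied little: *Scd2*, a fatty acid desaturase, lay between 2250 and 2526 CPM, and *Idi1*, an enzyme of isoprenoid synthesis, between 48.4 and 62.7 CPM.

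For *Th* the 10 genes were *Rgs6*, *Cdh20*, *Dcaf12l2*, *Bcl2*, *Gucy1a1*, *Atf6*, *Btbd11*, *Stac2*, *Zdhhc3* and *Fam241a*, with r between 0.959 and 0.975 and rho between 0.833 and 1. None of the 10 dopaminergic genes was among them, and 1 gene of each 10, *Gucy1a1*, a subunit of the nitric oxide receptor, was among the 10 for *Slc6a3* as well. Within genotypes r was between 0.917 and 0.97, and without POMC-C451Af/f replicates 3 and 4 it was between 0.751 and 0.934. *Rgs6*, a regulator of G protein signaling and the closest to *Th*, lay between 39.5 and 53.0 CPM. These are the highest of the values of all tested genes over the same 8 pools, and they describe these pools only.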

How the data were processed

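The deposited table holds an estimated count for each gene and pool, which the authors made with Salmon 1.10 and summed to genes with tximport, after FastQC 0.12.1; the submitters' processing notes give R 4.4, DESeq2 1.40 and GRCm39. The counts carry no transcript lengths. The authors' second table, with log2 fold changes, standard errors, test statistics and p-values of their DESeq2 comparison, was not used. Of the identifiers, 51424 matched a symbol, and positions and exon lengths (basic transcripts) are from GENCODE M21 on GRCm38.

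Counts were rounded, filtered with filterByExpr (minimum count 10, minimum total 15), normalized by TMM and fitted with edgeR 4.0.16 in R 4.3.3 (quasi-likelihood test, genotype only), with Benjamini-Hochberg adjustment over 18637 genes. The standard error is the absolute log2 fold change over the square root of F. The procedure was tested on simulated data. Every pair of pools differed by more than sampling noise (chi-square per degree of freedom at least 4.6). Spread was taken on log2(CPM + 0.5). Motifs were searched with Python 3.11.15.

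The members and lists were chosen with earlier results of these data known. Genes named are the 10 dopaminergic genes, *Esr1*, genes of the lists with an unadjusted p under 0.05, the most abundant of each list, and the 10 most like *Slc6a3* and *Th*; *Pou4f1*, *Kiss1*, *Hcrt*, *Nkx2-1*, *Drd4*, *Tph2*, *Gch1*, *Lmx1a*, *Chrnb4* and the called genes were added. The result of 1 marker list is not reported here. Alternatives were DESeq2 1.42.0, its size factors, total counts, no filter, a block for the replicate number, 10 counts in every pool, FDR alone, counts not rounded, a pseudocount of 1 CPM, and each pool left out. Chosen after seeing the data were 7 further DESeq2 fits with other filters, 2 with a block for the replicate number, each pool left out of the marker lists, and exon lengths over all annotated transcripts.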

Additional observations from a re-analysis of the deposited data

Results flagged for a closer look

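In 5 of 100 groups of 4 pools examined, the highest or lowest pool had a gap to its nearest neighbour that was a larger share of the group's range than Dixon's critical value allows, and chance gives about 5. Control replicate 1 stood out in *Prl*, at 1013 CPM where the other controls held 10.7 to 68.8 CPM (a gap of 0.942 of the range), in the summed anterior pituitary markers, at 1457 CPM against 24.3 to 98.1 CPM (0.949), and in *Pomc*, at 98.9 CPM against 49.7 to 50.8 CPM (0.978). Corticotrophs of the pituitary also express *Pomc*.

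POMC-C451Af/f replicate 3 stood out in the summed markers of ventral midbrain neurons without dopamine, at 28.3 CPM against 12.1 to 14.1 CPM in the other POMC-C451Af/f pools (0.876). Of this sum, *Pou4f1* made up 6.37 CPM in that pool and *Chrnb4*, a nicotinic receptor subunit, 5.22 CPM, against at most 0.445 and 1.29 CPM in the other POMC-C451Af/f pools. The same pool stood out in the sum of the further hypothalamic dopamine neuron genes, at 129 CPM against 154 to 159 CPM (0.853). It was the pool with the highest level of each of the 10 dopaminergic genes, none of which had a pool this far apart within its genotype. The part of the tissue makeup in these levels was not tested.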

How the results depend on the processing

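The log2 fold changes of the 10 dopaminergic genes and both medians were positive in all settings where they were computed. In those settings with no block in the fit, 0 of the 10 were called. They were not computed for FDR alone, counts not rounded or a pseudocount of 1 CPM, and *Pitx3* was not tested with 10 counts in every pool. The count of called genes was 4; it was 12 with DESeq2, 13, 15 or 16 in 7 further DESeq2 fits with other filters, and 2 with 10 counts in every pool, where fewer genes were tested. With each pool left out it ranged from 4 to 5, the median of the 3 synthesis and vesicle genes from 0.21 to 0.40, that of the 7 midbrain genes from 0.78 (without POMC-C451Af/f replicate 3) to 1.52 (without replicate 2), and their median spreads from 0.16 to 0.24 and from 0.38 to 0.62. The 0.38 came without POMC-C451Af/f replicate 2, and the cause was not tested. Of the other 80 values of these results, counts and spreads stayed within 1.5 times of those reported, and medians moved by less than the median spread of their genes.

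With the replicate number as a block (replicate block), edgeR called 2 genes and 0 of the 10, and the median spreads were 0.14 and 0.35, in a fit with fewer residual degrees of freedom. A DESeq2 fit with this block, added once the data had been seen, gave 10 calls, 4 of them dopaminergic genes: *Th* (log2 fold change 0.53; adjusted p = 1.96e-06), *Slc6a3* (1.87; 0.000209), *En1* (2.04; 0.00388) and *Chrna6* (0.95; 0.0037). Its independent filtering was set for an FDR of 0.1, and 0.05 gave 10 and 4 as well. In the fits without a block and in the blocked edgeR fit the adjusted p of these 4 was between 0.209 and 1. The cause of this difference was not tested, and the contrast took part in choosing the genes. The deviations of same-numbered pools correlated at 0.141, -0.179, -0.109 and 0.243, and a shared number was not taken as a pairing. *Pitx3* had the fewest counts of the 10 genes in every pool, at as few as 6.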
